A study of Homo sapiens with 8 samples.

Results

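Osteopontin, fibronectin and a set of matricellular proteins were followed at the RNA level in human oligodendrocyte progenitor cells (OPCs) plated on 3 substrates. The members are 8 genes listed by name, SPP1, FN1, SPARC, SPARCL1, THBS1, THBS2, POSTN and CD44, out of 58217 genes with a matched transcript, and all 8 were among the 18201 genes that passed the filter on low counts. No threshold on measured values entered the choice. The list of genes differing between VN and VNP2 that the study printed holds SPP1 and FN1, so their calls for that pair are not independent of the study's own.

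The OPCs came from the human embryonic stem cell line H9, which is established and widely used, and carried no forced SOX10. Cells spent 2 days on one of the substrates before polyadenylated RNA was sequenced as stranded libraries. Matrigel, the control, is a basement membrane extract of a mouse tumour, rich in laminin and collagen IV (replicates 2 and 3). Matrigel replicate 1 was not analysed here, so both comparisons with Matrigel rest on 2 Matrigel libraries. VN is recombinant full-length vitronectin (replicates 1 to 3), and VNP2 is a peptide designed from the cell-binding part of vitronectin, keeping its RGD motif and fused to a mussel adhesive protein (replicates 1 to 3). All groups share the H9 line and the absence of SOX10, and 1 cell line cannot stand for others. The labels do not say whether the replicates were separate cultures, so p-values here measure only the spread between libraries, which may be technical.

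Matricellular proteins are secreted into the extracellular matrix but modulate how cells contact it rather than building it. Osteopontin (SPP1), fibronectin (FN1) and the thrombospondins bind integrins, the transmembrane receptors that also hold cells on vitronectin, and several of them do so through a short arginine-glycine-aspartate (RGD) motif. CD44 is a cell surface receptor for hyaluronan that also binds osteopontin. In the nervous system, SPARCL1 and thrombospondins are known as astrocyte products that act on synapses, and fibronectin as a component of injured tissue that impedes remyelination.

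The RGD motif presented by the VN and VNP2 substrates also lies in the coding sequence of 4 of the 8 members. The stretches below are cut from GENCODE v29 transcripts (GRCh38), 5′ to 3′ on the coding strand, with the 3 RGD codons in capitals. They are shown because the substrates hold the same motif. Vitronectin itself (VTN) is given for comparison. The motif begins at codon 159 of the SPP1-203 transcript, at codon 1615 of FN1-203, at codon 926 of THBS1-201, at codon 933 of THBS2-207 and at codon 64 of VTN-201. No RGD codons were found in the longest coding transcript of SPARC, SPARCL1, POSTN or CD44. The share of all coding sequences with RGD codons was not counted, so the count of members has no background beside it. Whether the motif is exposed in each protein was not examined.
VTN: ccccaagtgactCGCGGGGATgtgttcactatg
SPP1: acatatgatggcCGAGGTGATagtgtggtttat
FN1: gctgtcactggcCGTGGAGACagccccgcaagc
THBS1: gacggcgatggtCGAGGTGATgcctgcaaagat
THBS2: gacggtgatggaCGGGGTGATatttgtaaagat
The SPP1 stretch lies in 1 exon at chr4:87981721-87981753 (plus strand) and the FN1 stretch in 1 exon at chr2:215384051-215384083 (minus strand). Those of THBS1 (chr15:39592799-39593028, plus strand), THBS2 (chr6:169223447-169225148, minus strand) and VTN (chr17:28369826-28369933, minus strand) each run across an intron, which is left out of the printed sequence.

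Each library held 37997896 to 39429453 estimated counts, so depth was even across the substrates. VN replicate 1 stood apart from the other VN libraries, with median chi-square values per gene of 2.35 and 2.75 against them, where sampling alone gives 0.455 and the other VN pair had 0.784. OPC markers were present, 5 of 6 passing the filter, while SOX10 had 20 estimated counts over all 8 libraries. Summed over the list, OPC markers reached 107 to 109 TPM (abundance scaled for transcript length and depth) on Matrigel, 136 to 138 on VN and 138 to 145 on VNP2. Most of that sum was OLIG1 and OLIG2, with mean TPM of 48.2 and 41.3 on Matrigel. NKX2-2 had 13.7 there, PDGFRA 3.76 and CSPG4 0.642. Macrophage and microglia markers, of interest because such cells are a known source of osteopontin, did not pass the filter in any of 5 cases and summed to 0.182 to 0.627 TPM over all libraries. These are bulk samples, so fewer cells of a type and less RNA per cell cannot be told apart.

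Per length, SPARC was by far the most abundant of the 8 and THBS2 the least. On the TPM scale, mean levels on Matrigel were 1891 ± 50.8 for SPARC, 172 ± 2.83 for FN1, 87.3 ± 0.389 for THBS1 and 50.3 ± 0.557 for SPP1 (SD, n = 2). The other 4 were scarce, at 3.65 ± 0.595 for POSTN, 2.6 ± 0.381 for CD44, 2.22 ± 0.820 for SPARCL1 and 0.475 ± 0.0239 for THBS2 (SD, n = 2). The Matrigel libraries of CD44 and SPARCL1 overlapped, so the order of these neighbours is not resolved, while POSTN lay above both and THBS2 below. On VNP2 the order of THBS1 and SPP1 was the other way round from Matrigel, with 34.3 ± 0.0894 TPM for THBS1 and 56.4 ± 2.67 for SPP1 (SD, n = 3), and no library of one overlapped with the other. On VN, THBS1 (44.2 ± 2.54) stayed above SPP1 (35.8 ± 2.82; SD, n = 3). For SPARC, 50.2% of the counts were assigned to SPARC-202, a transcript annotated as retaining an intron, and 36.4% to the full coding transcript SPARC-201. That first share was 49.2% on Matrigel, 50.6% on VN and 50.7% on VNP2.

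A gene was called where the Benjamini-Hochberg adjusted p of edgeR's quasi-likelihood test, taken over all 18201 genes, was under 0.05. Across the 3 substrates 4 of the 8 members were called (SPP1, FN1, SPARC and THBS1), where 19.3% of all tested genes were. For VN against Matrigel the same test called 4 members (15.3% of all genes), for VNP2 against Matrigel 3 members (16.6%) and for VNP2 against VN 3 members (5.1%). The libraries of the compared groups did not overlap for 4 members in the first pair (44.4% of all genes), 6 in the next (48.1%) and 4 in the last (23.6%). The 4 called members are the abundant ones, and the 4 scarce ones have wider intervals. Both comparisons with Matrigel rest on the same 2 Matrigel libraries. Values below are normalized counts, that is, estimated counts per gene after scaling for library size and for the average length of the transcripts detected, and they lay within 0.103% of the authors' deposited normalized counts in every library.

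**Figure D1:**
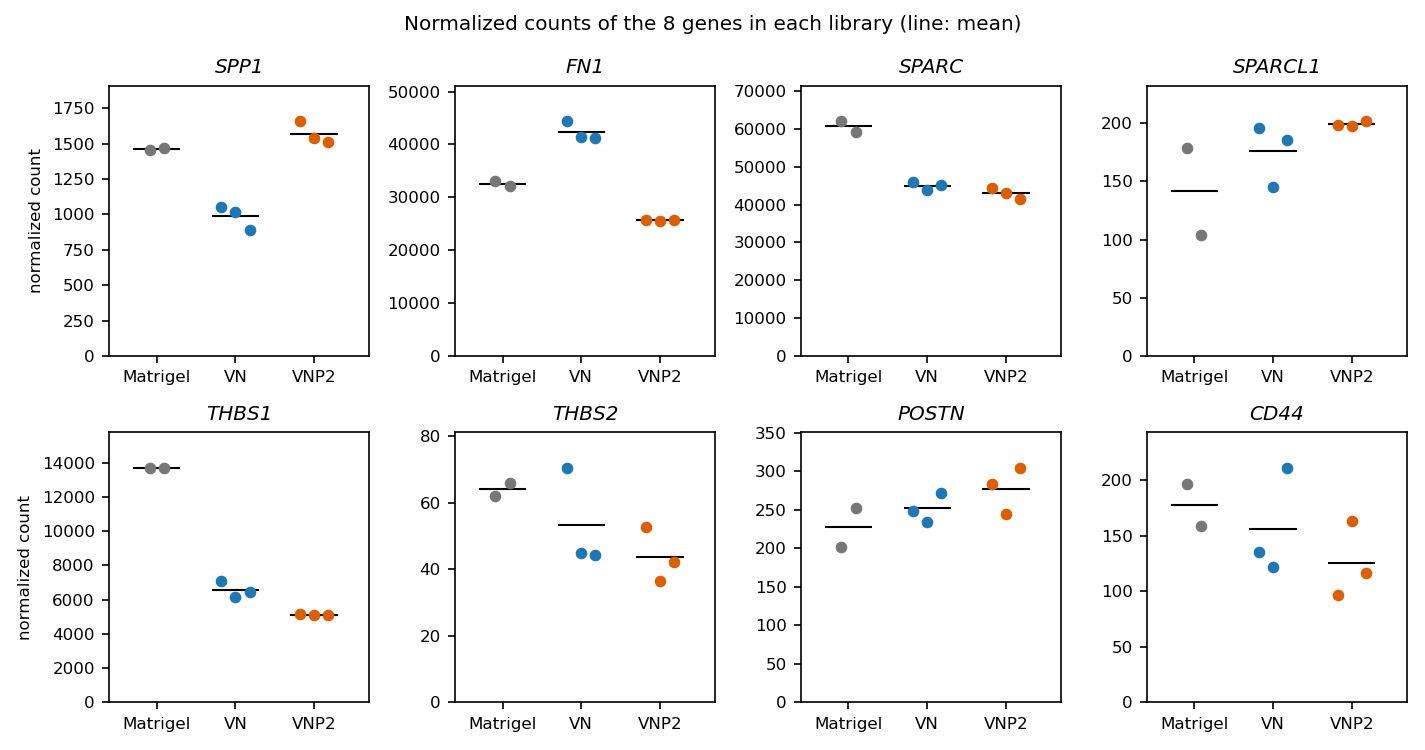
Normalized counts of the 8 genes (vertical axes, from 0) in the 8 libraries, grouped by substrate, with each point 1 library and each line the group mean. SPP1 is lowest on VN, FN1 is highest on VN, SPARC and THBS1 are highest on Matrigel, and the libraries of the 4 scarce genes overlap in at least 1 pair of substrates.

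SPP1 encodes osteopontin, a secreted phosphoprotein that binds integrins and CD44 (ENSG00000118785, chr4:87975650-87983426, plus strand). Its normalized counts were 1457 and 1469 on Matrigel, 1055, 1014 and 886 on VN, while VNP2 had 1658, 1537 and 1510. All 3 VN libraries lay below all others, and the VNP2 libraries lay just above both Matrigel libraries. VN was lower than Matrigel by a log2 fold change of -0.57 (SE 0.0749, adjusted p = 0.000623), or 0.673-fold, in edgeR's test. VNP2 was higher than VN by 0.67 (SE 0.0676, adjusted p = 0.000341), or 1.59-fold. VNP2 against Matrigel gave 0.10 with a 95% interval from -0.06 to 0.26 and was not called (adjusted p = 0.425, edgeR). SPP1 thus differed between the 2 vitronectin-based substrates, and any difference of VNP2 from Matrigel is bounded by that interval.

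FN1 encodes fibronectin, which cells assemble into fibrils through the integrin of ITGA5 and ITGB1 (ENSG00000115414, chr2:215360440-215436172, minus strand). The normalized counts were 33073 and 32089 on Matrigel, 44386, 41339 and 41262 on VN, while VNP2 had 25677, 25511 and 25664. The groups did not overlap in any pair, with VN highest and VNP2 lowest. FN1 was higher on VN than on Matrigel by 0.38 on the log2 scale (SE 0.0373, adjusted p = 9.06e-05, edgeR). It was lower on VNP2 than on Matrigel (-0.35, SE 0.0368, adjusted p = 0.000103) and than on VN (-0.72, SE 0.0333, adjusted p = 3.53e-06). SPP1 and FN1 therefore lay at opposite ends on VN, 1 at its lowest and 1 at its highest level of the 3 substrates.

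THBS1 encodes thrombospondin-1, which binds CD47, CD36 and integrins and can activate latent TGF-beta (ENSG00000137801, chr15:39581079-39599466, plus strand). The normalized counts were 13706 and 13696 on Matrigel, 7067, 6134 and 6457 on VN, while VNP2 had 5157, 5133 and 5098. The 3 groups did not overlap and formed a descending order. The fold change was 0.478 on VN (log2 -1.06, SE 0.0507, adjusted p = 6.01e-07) and 0.374 on VNP2 (log2 -1.42, SE 0.0509, adjusted p = 6.68e-08), both against Matrigel in edgeR. VNP2 was also lower than VN by -0.35 (SE 0.0468, adjusted p = 0.00167). Of the 8 members, THBS1 had the largest fold change in both comparisons with Matrigel.

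SPARC encodes osteonectin, a collagen-binding matricellular protein (ENSG00000113140, chr5:151661096-151687165, minus strand). It had 62072 and 59338 normalized counts on Matrigel, 45915, 43750 and 45136 on VN, while VNP2 had 44522, 43154 and 41585. Both Matrigel libraries stood above the other 6, which overlapped between VN and VNP2. SPARC was lower on VN by -0.43 (SE 0.0373, adjusted p = 3.46e-05) and on VNP2 by -0.49 (SE 0.0373, adjusted p = 8.99e-06) against Matrigel in edgeR. Between VNP2 and VN the difference was -0.06 with a 95% interval from -0.14 to 0.01 and was not called (adjusted p = 0.363).

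**Figure D2:**
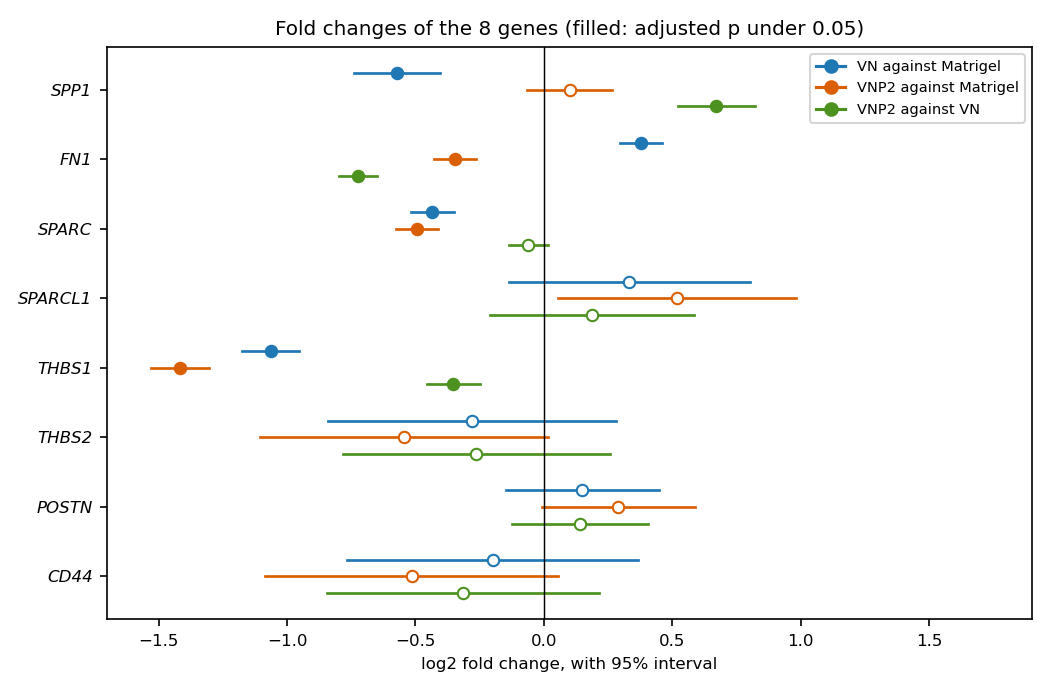
Log2 fold changes of the 8 genes (horizontal axis) with 95% intervals for VN against Matrigel, VNP2 against Matrigel and VNP2 against VN, filled where the adjusted p was under 0.05. The intervals of SPP1, FN1, SPARC and THBS1 are narrow, those of the 4 scarce genes are wider, and THBS1 against Matrigel lies farthest from 0.

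SPARCL1 encodes hevin, the closest relative of SPARC (ENSG00000152583, chr4:87473335-87531061, minus strand). It lies 444588 bases from SPP1 on chromosome 4. The normalized counts were 179 and 104 on Matrigel, 196, 145 and 186 on VN, while VNP2 had 198, 198 and 202. The VNP2 libraries were close together and just above the highest VN library, and the Matrigel libraries were far apart. No comparison was called, with log2 fold changes of 0.33 for VN (adjusted p = 0.328) and 0.52 for VNP2 (adjusted p = 0.127) against Matrigel and 0.19 for VNP2 against VN (adjusted p = 0.624) in edgeR. Without Matrigel replicate 2 the VNP2 difference became 0.94 and was called (adjusted p = 0.0163), and without Matrigel replicate 3 the VN difference became -0.03 (adjusted p = 0.944).

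The spread of SPARCL1 moved with the length scaling. In Matrigel replicate 2, 12.6 of its estimated counts, or 9.79%, were assigned to transcripts with under 1000 coding bases, and these made up 42.0% of its TPM. The average transcript length used for scaling was 1962 bases in that library and 2995 in Matrigel replicate 3, where no counts fell in such transcripts. Scaled for library size alone, SPARCL1 had 132 and 118 normalized counts on Matrigel, 172, 162 and 171 on VN, while VNP2 had 217, 220 and 221. On this scale the 3 groups did not overlap and rose in that order. The test without the length offset called all 3 pairs, at 0.43 (adjusted p = 0.0149), 0.82 (adjusted p = 0.000208) and 0.38 (adjusted p = 0.0241) for VN and VNP2 against Matrigel and VNP2 against VN in edgeR.

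CD44 (ENSG00000026508, chr11:35138870-35232402, plus strand) behaved alike with respect to the length scaling. Its normalized counts were 197 and 159 on Matrigel, 135, 122 and 211 on VN, while VNP2 had 96.9, 163 and 117, and the groups overlapped. The log2 fold changes were -0.20 (adjusted p = 0.652), -0.52 (adjusted p = 0.216) and -0.32 (adjusted p = 0.512) in edgeR, none of them called. Scaled for library size alone, CD44 had 221 and 209 on Matrigel, 124, 139 and 155 on VN, while VNP2 had 106, 119 and 130. Both Matrigel libraries then lay above the rest, and the test without the length offset called VN (-0.62, adjusted p = 0.00694) and VNP2 (-0.86, adjusted p = 0.000795) against Matrigel but not VNP2 against VN (-0.23, adjusted p = 0.292). Transcripts with under 1000 coding bases took 2.89 to 25.1% of the CD44 counts but 14.7 to 57.8% of its TPM. Without the length offset, 6 members were called across the substrates (20.9% of all genes), 6 for VN against Matrigel (16.9% of all genes), 5 for VNP2 against Matrigel (17.9%) and 4 for VNP2 against VN (6.06%).

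**Figure D3:**
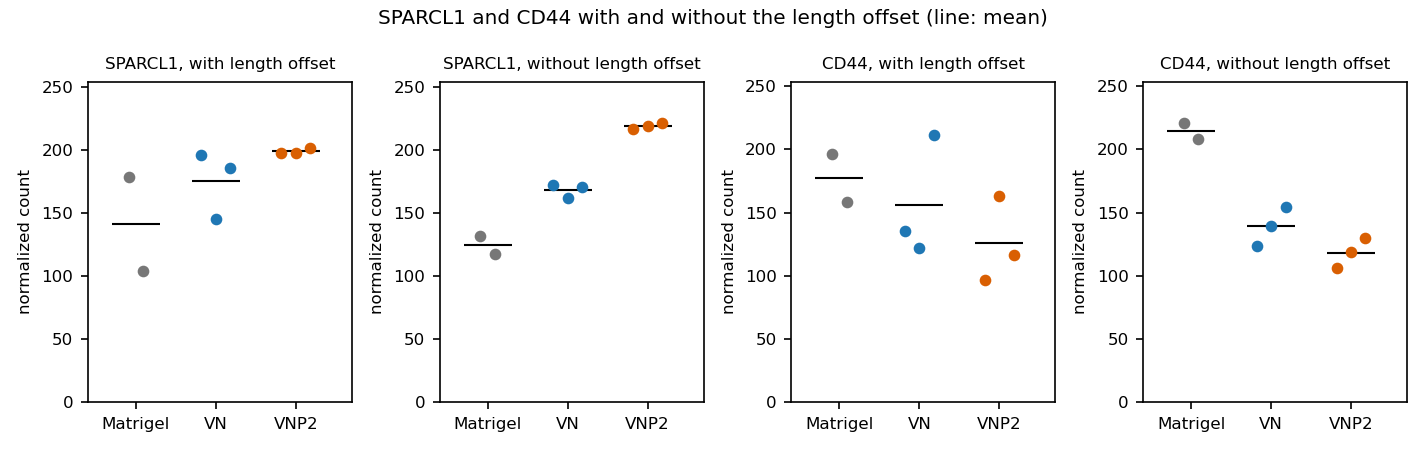
SPARCL1 and CD44 normalized counts (vertical axes, from 0) by substrate, with and without scaling for average transcript length, with each point 1 library and each line the group mean. Without that scaling the SPARCL1 groups separate in the order Matrigel, VN, VNP2, and both Matrigel libraries of CD44 lie above the other 6.

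THBS2 and POSTN were not called in any pair. THBS2 encodes thrombospondin-2, close kin of thrombospondin-1 (ENSG00000186340, chr6:169215780-169254044, minus strand), and had 62.0 and 66.1 normalized counts on Matrigel, 70.6, 44.9 and 44.4 on VN, while VNP2 had 52.8, 36.7 and 42.1. Its VNP2 libraries all lay below its Matrigel libraries, and the difference of -0.54 had a 95% interval from -1.10 to 0.02 (adjusted p = 0.186, edgeR). POSTN encodes periostin, a matricellular protein of fibrous tissue (ENSG00000133110, chr13:37562583-37598844, minus strand), and had 202 and 252 on Matrigel, 248, 234 and 272 on VN, while VNP2 had 283, 244 and 305. The POSTN groups overlapped in every pair, and its largest difference, VNP2 against Matrigel, was 0.29 with an interval from -0.01 to 0.59 (adjusted p = 0.185, edgeR). For POSTN on VN against Matrigel the difference of 0.15 became -0.00 without Matrigel replicate 2.

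Several members are made in alternative forms, and the share of each form was compared between substrates. SPP1 has 2 exons that can be skipped, exon 4 (81 bases, absent from the form called osteopontin-c) and exon 5 (42 bases, absent from osteopontin-b), both upstream of the RGD codons. They are printed from SPP1-203 (GRCh38, plus strand) to show what the forms lack.
SPP1 exon 4, chr4:87980046-87980126: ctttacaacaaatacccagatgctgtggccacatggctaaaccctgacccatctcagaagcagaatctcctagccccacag
SPP1 exon 5, chr4:87980393-87980434: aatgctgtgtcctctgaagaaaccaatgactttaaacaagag
Exon 5 was held by 69.8 and 71.7% of the coding SPP1 TPM on Matrigel, 69.0, 73.7 and 77.7% on VN, with 64.1, 70.6 and 67.8% on VNP2. The means ranged from 67.5% (VNP2) to 73.5% (VN), and the groups overlapped. The difference did not pass an exact permutation test of the between-substrate sum of squares (one-sided, p = 0.207, adjusted over 7 shares p = 0.725). Exon 4 was held by 95.1 to 98.2% in every library, and this share was not tested. The main form was therefore the one with both exons, at 67.0% of SPP1 counts, followed by the form without exon 5 at 29.8%.

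FN1 has 2 extra domains that are known to be kept in embryonic and injured tissue and skipped in plasma fibronectin. The EDB exon (273 bases, chr2:215392931-215393203) was held by 91.9 to 94.3% of coding FN1 TPM over the 8 libraries, and the EDA exon (270 bases, chr2:215380811-215381080) by 75.4 to 79.2%. Neither difference between substrates passed the exact permutation test (one-sided, p = 0.829 for EDB and p = 0.404 for EDA, adjusted p = 0.85 for both). FN1 thus changed in amount between substrates while the largest difference in the mean share was 0.578 percentage points for EDB and 1.51 for EDA. Without Matrigel replicate 2 these were 1.37 and 3.11, and over all libraries left out in turn they ranged from 0.375 to 1.37 for EDB and from 1.18 to 3.11 for EDA.

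For CD44, 84.2% of the counts fell in CD44-201, the standard form without variable exons. Variable exons were held by 0 to 22% of the coding TPM that spans them, with 4 of 8 libraries at 0 and the highest value in VNP2 replicate 2 (exact permutation test, one-sided, p = 0.85, adjusted p = 0.85). POSTN has cassette exons near its C-terminus, of which 3 had mean shares between 17.3 and 84.4%. The POSTN exon of 81 bases (chr13:37574572-37574652) was held by 38.7 and 20.3% on Matrigel, 13.2, 15.8 and 21.6% on VN, with 0, 11.6 and 17.1% on VNP2 (exact permutation test, one-sided, p = 0.0536, adjusted p = 0.375). These POSTN shares rest on 214 to 275 estimated counts per library and the CD44 shares on 89.4 to 200. For both, the error of Salmon's assignment between forms is not known.

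**Figure D4:**
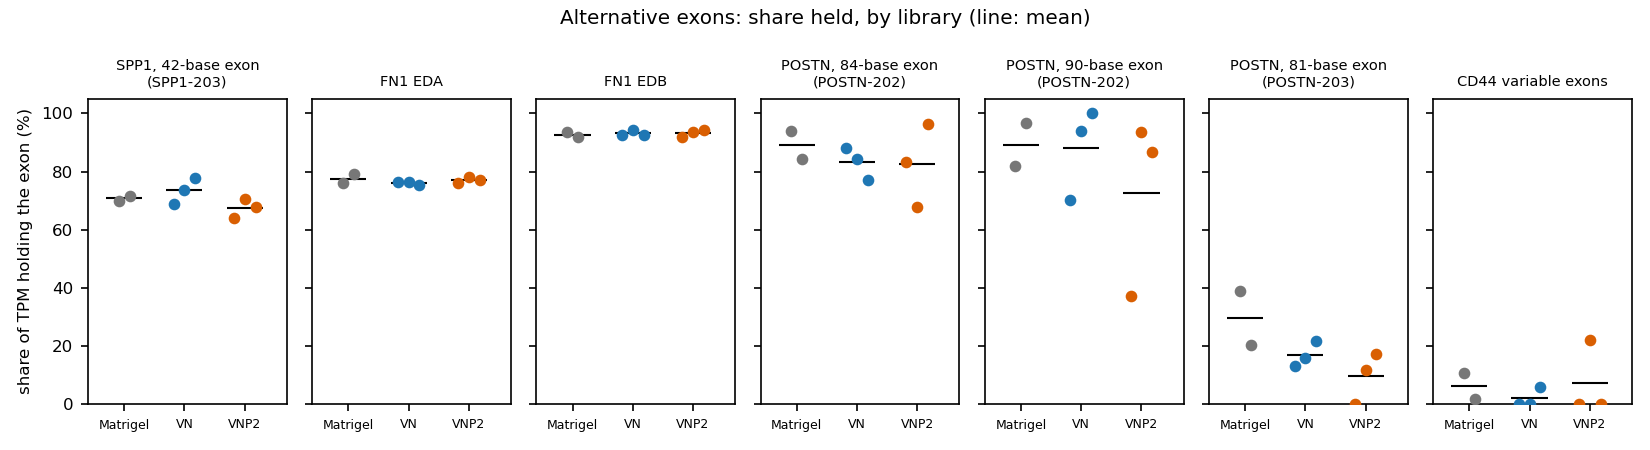
Share of coding TPM that holds each alternative exon (vertical axis, percent) by substrate for SPP1, FN1, POSTN and CD44, with each point 1 library and each line the group mean. The FN1 shares are tight at 91.9 to 94.3% (EDB) and 75.4 to 79.2% (EDA), and the POSTN and CD44 shares scatter within substrates.

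The libraries give 8 points for the likeness of other genes to a member, which share depth and substrate, so the following is a description. Among 12995 genes whose normalized counts averaged 100 or more, the genes most like SPP1 were FBN2 (Pearson r = 0.99), VASN (r = 0.98) and GYPC (r = 0.98), on log2 normalized counts over the 8 libraries. FBN2, the microfibril protein fibrillin-2, had means of 19968, 17423 and 20284 on Matrigel, VN and VNP2. The genes most like FN1 were MYO5B (r = 0.99), GTSE1 (r = 0.99) and CDC25B (r = 0.97). MYO5B, a myosin motor, had means of 341, 514 and 221, and GTSE1 and CDC25B, which act in the G2 and M phases of the cell cycle, moved less, with 3442, 3691 and 3214 for GTSE1.

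The receptors of the members were next compared. Over all tested genes the shares called were 15.3% for VN against Matrigel, 16.6% for VNP2 against Matrigel and 5.1% for VNP2 against VN. The counts of this list and of those that follow are to be read beside these shares. Of 8 integrin subunits known to bind osteopontin, fibronectin or thrombospondins, 5 were lower and 0 higher on VN than on Matrigel, 3 lower and 1 higher on VNP2 than on Matrigel, and 3 higher and 1 lower on VNP2 than on VN. The list's median log2 fold changes were -0.31, -0.18 and 0.06, beside 0.00 for all genes in each comparison. ITGA4, a subunit that binds osteopontin and an alternative region of fibronectin, fell from 1214 ± 58.6 (SD, n = 2) to 463 ± 50.8 on VN and 261 ± 21.1 on VNP2 (SD, n = 3). Its log2 fold changes were -1.39 and -2.22 against Matrigel and -0.83 for VNP2 against VN (adjusted p = 6.78e-06, 2.26e-07 and 0.00076, edgeR). ITGA3 was lower on both (-1.27 and -1.31), as was ITGAV, the alpha subunit of the vitronectin receptors (-0.32 and -0.28), whose VNP2 call was lost without Matrigel replicate 2 (adjusted p = 0.0533). ITGA8, an RGD-binding subunit, was higher on VNP2 than on Matrigel (1.41, SE 0.235, adjusted p = 0.00224) and than on VN (1.10, SE 0.204, adjusted p = 0.0111). ITGB5 was lower on VN than on Matrigel (-0.43, adjusted p = 0.00107) and higher on VNP2 than on VN (0.34, adjusted p = 0.00537). ITGA9 had the same directions (-0.25 and 0.41), but its VN call was lost without Matrigel replicate 2 or 3 or VN replicate 3, at adjusted p up to 0.184.

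Of 6 other receptors of thrombospondins, 4 were lower and 0 higher on VN than on Matrigel, 2 lower and 1 higher on VNP2 than on Matrigel, and 1 higher on VNP2 than on VN. CD36, a scavenger receptor, had 116 ± 5.56 normalized counts on Matrigel (SD, n = 2), 71.7 ± 15.7 on VN and 206 ± 9.98 on VNP2 (SD, n = 3). It was higher on VNP2 than on VN by 1.52 (SE 0.159, adjusted p = 0.000433, edgeR). Its calls against Matrigel were less firm. The VN call (-0.69, adjusted p = 0.0281) was lost without Matrigel replicate 2 or 3 or VN replicate 3 (adjusted p up to 0.152) and without the length offset (-0.21, adjusted p = 0.403), and the VNP2 call (0.83, adjusted p = 0.00935) was lost without Matrigel replicate 2 or 3 (adjusted p up to 0.0782). CD47, the receptor through which thrombospondin-1 signals to many cells, was lower on VN (-0.36) and VNP2 (-0.32), and so was CALR (-0.26 and -0.22), which encodes calreticulin. STIM1 was lower on VN (-0.22), a call lost without Matrigel replicate 2 or 3 or VN replicate 2 at adjusted p up to 0.151.

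Relatives of the members did not move as 1 group. Of the other thrombospondins, THBS4 was higher on both substrates than on Matrigel (0.38, adjusted p = 0.00373, and 0.67, adjusted p = 5.39e-05, edgeR), the direction opposite to THBS1. THBS4 was also higher on VNP2 than on VN (0.30, adjusted p = 0.0133), though not without VNP2 replicate 3 (adjusted p = 0.0547). THBS3 was higher on VNP2 than on VN (0.37, adjusted p = 0.00267) and lower on VN than on Matrigel (-0.26), the latter lost without Matrigel replicate 2 or 3 (adjusted p up to 0.105). COMP had 11 estimated counts in all and was not tested.

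Of 6 other members of the SPARC family, 2 were higher and 2 lower on VN than on Matrigel, 2 higher and 2 lower on VNP2 than on Matrigel, and 1 lower on VNP2 than on VN. SPOCK1, a proteoglycan, fell in all 3 comparisons (-0.55, -0.88 and -0.33), and FSTL1 was lower on both substrates than on Matrigel (-0.35 and -0.40). SMOC1 and SMOC2 were higher on both (0.29 and 0.47 for SMOC1, 0.35 and 0.30 for SMOC2). Of these, the VN calls were lost without Matrigel replicate 2 for SMOC1 (adjusted p = 0.08) and without Matrigel replicate 3 for SMOC2 (adjusted p = 0.0526), and the VNP2 call of SMOC2 without either Matrigel replicate (adjusted p up to 0.0762).

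In the list of fibulins and the periostin paralog TGFBI, 3 of 7 genes were lower and 0 higher on VN than on Matrigel (15.3% of all genes called). On VNP2, 1 was lower than on Matrigel (16.6% of all genes) and 1 higher than on VN (5.1%). TGFBI, itself an integrin ligand, was lower on VN (-0.39, adjusted p = 0.00028) and VNP2 (-0.54, adjusted p = 1.89e-05, edgeR). The other calls were small and less firm. FBLN1 (-0.17) and EFEMP2 (-0.24) were lower on VN, calls lost without Matrigel replicate 2 or 3 or VN replicate 2 or 3 (adjusted p up to 0.186 and 0.173). EFEMP1 was higher on VNP2 than on VN (0.22), a call lost without VN replicate 2 or 3 or any VNP2 replicate (adjusted p up to 0.144).

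The CCN family, matricellular proteins whose founding members are targets of mechanical signalling, were represented by 4 tested genes. Of these, 2 were lower on VN and 2 on VNP2 than on Matrigel, and 1 was higher and 1 lower on VNP2 than on VN. CCN1 had 10363 ± 413 normalized counts on Matrigel (SD, n = 2), 3211 ± 149 on VN and 2389 ± 73.2 on VNP2 (SD, n = 3). Its log2 fold changes were -1.69 and -2.12 against Matrigel and -0.43 for VNP2 against VN (adjusted p = 4.22e-08, 8.08e-09 and 0.000457, edgeR), a descending order as for THBS1. CCN2 had 37037 ± 569, 14783 ± 156 and 19050 ± 966, with log2 fold changes of -1.33, -0.96 and 0.37 (adjusted p = 4.44e-08, 1.88e-07 and 0.000342), so that VN was its lowest substrate.

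A further list held 8 genes of the fibronectin receptor, of other matrix proteins and of matrix enzymes, not all with a direct part in fibronectin assembly. Of these, 6 were lower and 0 higher on VN than on Matrigel, while FN1 itself was highest on VN. On VNP2, 5 were lower than on Matrigel, and 2 were higher than on VN. ITGA5, the alpha subunit of the main fibronectin receptor, fell by 0.78 on VN and by 0.82 on VNP2 on the log2 scale (adjusted p = 2.26e-05 and 1.09e-05, edgeR), and its partner ITGB1 fell by 0.34 on both. The list also holds FBN2 (-0.20 on VN, 0.22 for VNP2 against VN), LTBP1 (-0.32 on VN, -0.14 on VNP2, 0.18 for VNP2 against VN) and BMP1 (-0.25 on VN, -0.19 on VNP2). The VNP2 call of LTBP1 was lost without either Matrigel replicate or VNP2 replicate 2 or 3 (adjusted p up to 0.15), and that of BMP1 without Matrigel replicate 2 or any VNP2 replicate (up to 0.352). The VN call of BMP1 was lost without Matrigel replicate 2 (adjusted p = 0.151).

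In the hyaluronan system around CD44, 1 of 11 tested genes was higher and 4 lower on VN, 1 higher and 4 lower on VNP2, and 1 lower on VNP2 than on VN. HAS3, a hyaluronan synthase, was higher on VNP2 than on Matrigel (0.87, adjusted p = 0.00262, edgeR). The VN call of HAS3 (0.55, adjusted p = 0.0319) was lost without either Matrigel replicate or VN replicate 1 or 2 (adjusted p up to 0.18) and without the length offset (0.36, adjusted p = 0.0859). EZR, which encodes ezrin, a linker between CD44 and actin, fell by 0.51 and by 0.54, and TMEM2, a cell surface hyaluronidase, by 0.29 and by 0.34. HMMR, a hyaluronan receptor that also marks mitosis, was lower on VNP2 than on Matrigel (-0.29) and than on VN (-0.24). MSN (-0.15 on VN, -0.16 on VNP2) and RDX (-0.14 on VN) encode the related linkers moesin and radixin. The VN call of MSN was lost without either Matrigel replicate (adjusted p up to 0.0933), its VNP2 call without Matrigel replicate 2 (0.0661), and the RDX call with any library but VNP2 replicate 1 or 2 left out (up to 0.229).

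Of 9 proteases listed for a direct or indirect part in the cutting of osteopontin or CD44, 5 were tested. On VN 2 of them were lower than on Matrigel and on VNP2 3 were, and 1 was higher on VNP2 than on VN. PLAU, the urokinase plasminogen activator, had 723 ± 22.7 normalized counts on Matrigel (SD, n = 2), 112 ± 2.02 on VN and 194 ± 44.0 on VNP2 (SD, n = 3). Its log2 fold changes were -2.69 and -1.90 against Matrigel and 0.79 for VNP2 against VN (adjusted p = 1.52e-06, 8.6e-06 and 0.0114, edgeR). MMP2 was lower on both (-0.35 and -0.42), and ADAM17 on VNP2 (-0.15), a call lost without either Matrigel replicate or VNP2 replicate 2 or 3 (adjusted p up to 0.234). Some of the small calls named above also depended on other settings. Fitted on the libraries of the pair alone, the VN calls of FBLN1, EFEMP2, ITGA9, RDX and CD36 were lost (adjusted p = 0.0571, 0.0634, 0.0605, 0.0533 and 0.0675, edgeR). Without the length offset, LTBP1 for VNP2 against VN (adjusted p = 0.0584), RDX on VN (0.0905), and BMP1 (0.112) and ADAM17 (0.0511) on VNP2 were lost, and ADAM17 also without the filter (0.0598). Of the bone and dentin phosphoproteins that neighbour SPP1 on chromosome 4, IBSP and MEPE had no counts and DMP1 was not called in any pair.

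**Figure D5:**
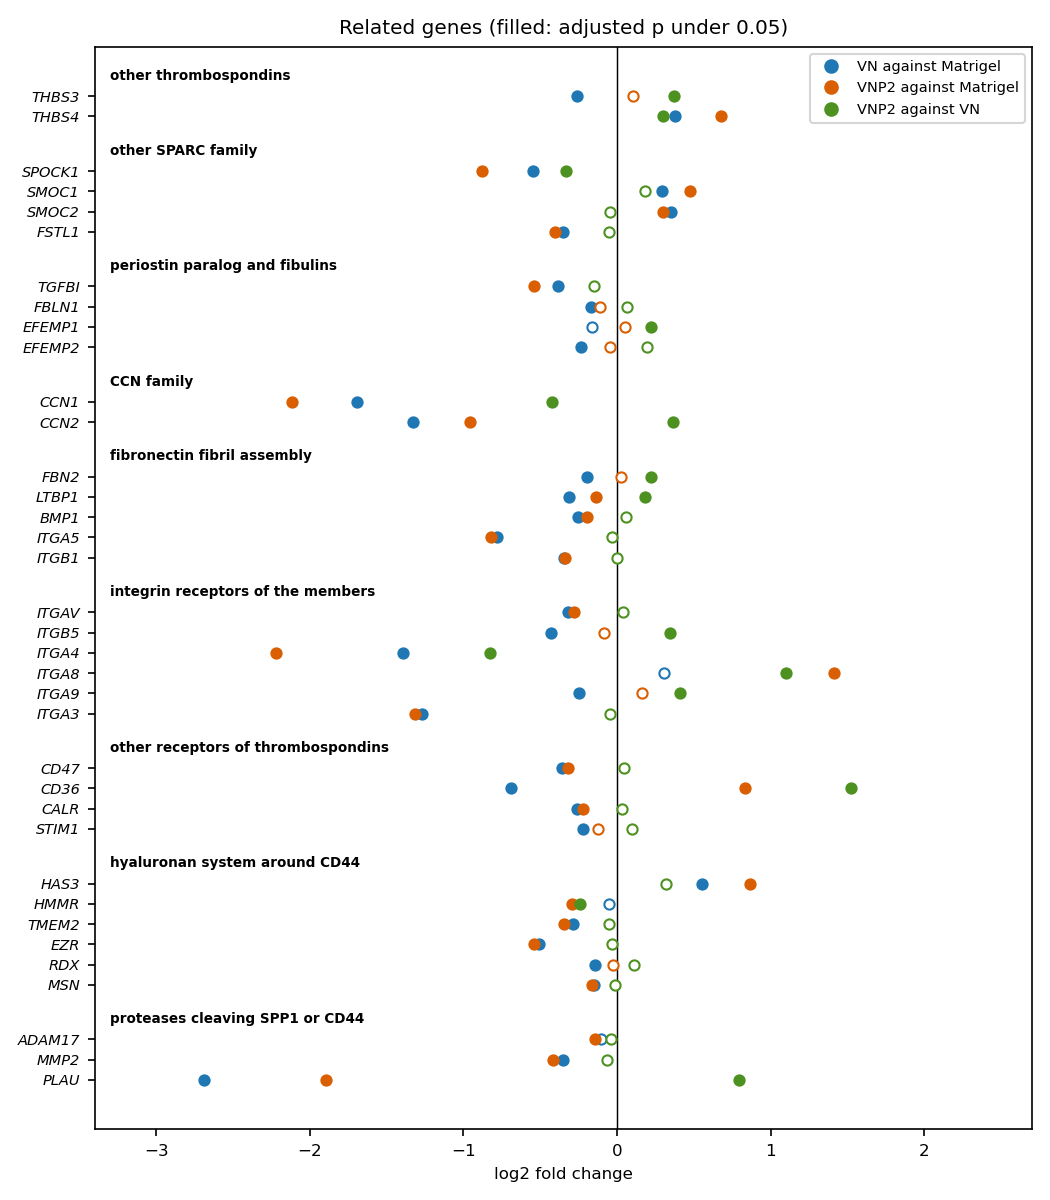
Log2 fold changes (horizontal axis) of the related genes called in at least 1 pair of substrates, grouped by list, for VN against Matrigel, VNP2 against Matrigel and VNP2 against VN, filled where the adjusted p was under 0.05. CCN1, CCN2, ITGA4, ITGA3 and PLAU lie far to the left for both substrates against Matrigel, and ITGA8 and CD36 lie to the right for VNP2.

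Markers of other cell types moved between the same substrates. Smooth muscle or pericyte markers summed to 602 to 632 TPM on Matrigel, 162 to 172 on VN and 130 to 160 on VNP2. Most of that sum was TAGLN, with mean TPM of 498 on Matrigel, 121 on VN and 106 on VNP2. All 4 tested (of 5) were lower on both substrates, while MYH11 had 18 estimated counts in all. Smooth muscle cells and pericytes express THBS1 and SPARC. Whether these markers fell through fewer such cells, and their part in the THBS1 and SPARC differences, was not tested. Mesenchymal markers, all 8 tested, summed to 512 to 521, 579 to 616 and 501 to 536 TPM. On VN 3 of them were higher and 2 lower than on Matrigel, on VNP2 5 were higher and 2 lower, and the part of this list in the FN1 difference was not tested. The 2 that were lower on both were COL1A1 and PRRX1. In the order Matrigel, VN, VNP2, the mean normalized counts were 24749, 17050 and 9341 for COL1A1 and 739, 561 and 495 for PRRX1. Higher on both than on Matrigel were COL1A2 (4838, 6074 and 5928), LUM (2880, 4299 and 3567) and DCN (2209, 3191 and 2801). COL3A1 and TWIST1 were called higher than on Matrigel for VNP2 alone. Astrocyte markers summed to 192 to 202, 115 to 125 and 134 to 144 TPM with GFAP and AQP4 not tested. Nearly all of that sum was GJA1, with mean TPM of 193, 116 and 135 in the same order. GJA1 was the 1 astrocyte marker called of 3 tested, and it was lower on VN (log2 fold change -0.82) and VNP2 (-0.59) than on Matrigel, while S100B and ALDH1L1 did not pass the test. Neuron markers summed to 159 to 169, 239 to 250 and 267 to 290 TPM, the order in which SPARCL1 rose without the length offset. OPC markers were also lower on Matrigel (107 to 109 TPM) than on VN (136 to 138) and VNP2 (138 to 145). The part of either list in the SPARCL1 values was not tested.

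Neural crest markers (4 of 6 tested) summed to 68.1 to 79.5 TPM over all libraries, endothelial markers (3 of 4) to 10.3 to 12 and pluripotency markers (5 of 5) to 37.5 to 45.8. Single genes among them differed: ETS1 was lower on VN and VNP2 than on Matrigel (log2 fold changes of -1.38 and -0.97) and SOX9 higher (0.45 and 0.37). TFAP2A, also of the neural crest list, was called higher on VNP2 than on Matrigel (0.999, adjusted p = 0.00692, edgeR). Its VN difference from Matrigel (0.63) was not called (adjusted p = 0.0654). The endothelial genes CDH5 (-1.93 and -1.60) and TEK (-0.997 and -1.36) were lower on both substrates. Of the pluripotency markers none was called for VN against Matrigel, while on VNP2 POU5F1 (-1.26) and TDGF1 (-1.50) were lower and DPPA4 higher (0.18). The part of these lists in the members' differences was not tested.

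The promoter of THBS1, the member with the largest change, was searched for the letters GGAATG, the core motif of TEAD factors, on both strands, as were the 250 bases before the RefSeq start of every gene (GRCh38.p14). GGAATG was held by 3 of the 8 members (SPARC, THBS1 and THBS2) and by 11.9% of 35116 promoters. TGANTCA, the AP-1 motif, was held by 1 member (POSTN) and 6.57% of promoters, and the CArG box of SRF by 1 member (SPARCL1) and 1.16%. The THBS1 window (chr15:39580829-39581078, plus strand) is shown because THBS1 had the largest fall of the 8, with the GGAATG letters at positions -46 to -41 from the start in capitals.
THBS1 promoter: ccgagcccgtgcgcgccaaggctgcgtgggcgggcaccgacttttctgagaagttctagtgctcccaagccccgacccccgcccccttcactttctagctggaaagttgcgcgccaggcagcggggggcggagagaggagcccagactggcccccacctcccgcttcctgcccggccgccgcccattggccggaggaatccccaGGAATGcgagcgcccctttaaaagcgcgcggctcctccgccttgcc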

How the data were processed

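The authors trimmed adapters with Trim Galore, estimated transcript abundance with Salmon on GENCODE v32 (GRCh38) and passed it through tximport to DESeq2 1.27.12. The deposited files hold Salmon's estimated counts and TPM per transcript for each library, and a table of normalized counts per gene, which is a signal made by the authors by dividing by DESeq2's factors. The members and gene lists were chosen with earlier results of these data known.

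Transcripts were matched by identifier to GENCODE v29 (205225 of 226608, holding 98.79 to 98.88% of the counts) and summed per gene. Counts were rounded, and genes were kept by filterByExpr (minimum count 10, minimum total 15). A single edgeR 4.0.16 quasi-likelihood fit (R 4.3.3, TMM, offsets for average transcript length, common dispersion 0.0037) held all 8 libraries, tested two-sided and adjusted by Benjamini-Hochberg over 18201 genes. SE was derived from the fold change and F. Exon shares were compared by all 560 assignments of the libraries to the groups, for which the smallest p is 0.00357. Named genes were the 8 members, for each list up to 6 called genes with a mean of at least 50, and the 3 genes most like SPP1 and FN1. The error from sampling alone is 10% for a count of 100. The fit was first tested on simulated counts. The alternatives were DESeq2 1.42.0, RLE normalization, no length offset, no filter, a minimum of 50 counts in all libraries, a replicate block, fits on the pair's libraries alone, limma 3.58.1 on log2 of the deposited normalized counts (pseudocount 1), and leaving out each library. Python 3.11.15, pandas 2.3.3 and scipy 1.17.1 were used. The other experiments of the article were not analysed here.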

Additional observations from a re-analysis of the deposited data

How the results depend on the processing

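SPP1, FN1, SPARC and THBS1 kept their calls and directions under every alternative run. Members called for VNP2 against Matrigel rose from 3 to 5 without the length offset, which adds SPARCL1 and CD44. Leaving out 1 library gave 4 to 5 members called across the substrates, 4 for VN against Matrigel, 3 to 4 for VNP2 against Matrigel and 3 for VNP2 against VN. Over all genes it gave 1879 to 4975 calls across the substrates (3518 with all libraries) and 1188 to 3899 for VN against Matrigel (2778). For VNP2 it gave 1609 to 3608 against Matrigel (3016) and 547 to 1996 against VN (928). Each of these counts was highest without VN replicate 1. The log2 fold change for VN against Matrigel ranged from -0.0319 (without Matrigel replicate 3) to 0.752 for SPARCL1 and from -0.0017 (without Matrigel replicate 2) to 0.318 for POSTN. The deviations of same-numbered libraries had correlations of -0.133 to 0.161. Without correlations of differently numbered libraries as a reference, these values cannot decide whether the numbers pair the libraries. With a replicate block, more genes were called across the substrates and in each pair than without it. Of the members, 4 were then called for VNP2 against Matrigel, THBS2 being added (-0.74, adjusted p = 0.044). BMP1 on VNP2 (adjusted p = 0.0524) and CD36 on VN (0.056) lost their calls with the block. THBS2 could not be tested at 50 counts in every library. Of 74 called differences of the 36 related genes, 52 kept their call under every alternative, 21 lost it with at least 1 library left out and 9 under another setting. No exon share passed its test under any alternative. With 1 library left out fewer assignments remain, and after adjustment over 7 shares no share could pass alone. Those tests therefore decide nothing, and only the sizes of the differences are given. The largest difference between substrate means, 1 library left out, was 3.85 to 8.23 percentage points for SPP1 exon 5. It was 1.18 to 3.11 for FN1 EDA, 0.375 to 1.37 for FN1 EDB and 4.40 to 9.05 for CD44 variable exons. For POSTN it was 10.7 to 29.2 for exon 17 of POSTN-203 and 1.87 to 13.6 for exon 20 of POSTN-202. For exon 17 of POSTN-202 it was 2.22 to 27.3 (lowest without VNP2 replicate 1). With 2 Matrigel libraries and the low counts of the 4 scarce members, smaller differences could not be resolved.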
